A study of Mus musculus with 70 samples.

Results

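The genes described here are 10 genes of the Wnt pathway, chosen by name from the 23078 genes in the file: the ligands Wnt7a, Wnt7b and Wnt8b, the secreted modulators Sfrp1, Sfrp2 and Dkk3, the receptors Fzd8 and Fzd9, and the pathway components Axin2 and Lef1. All 10 passed the filter on low values and were among the 15508 genes tested. RNA sequencing had been run on sorted cells of the mouse dorsal cortex. Newborn neurons (NBN, 14 libraries, 5 stages from E15.5) and basal progenitors (BP, 23 libraries, 8 stages from E12.5) were GFP-positive cells of Tbr2::GFP animals, and neural stem cells (NSC, 33 libraries, 10 stages from E10.5) were GFP-positive cells of Hes5::GFP animals. All animals were labelled wild type on C57Bl/6, stages ran from E10.5 to E18.5 and then PN (postnatal day 1), and each of the 23 groups of cell type and stage held 2 to 4 libraries.

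Wnt proteins are secreted, lipid-modified ligands that bind Frizzled receptors and stabilise beta-catenin, which then acts with TCF and LEF factors on target genes. In the developing cortex the cortical hem, at the medial edge of the dorsal telencephalon, is a source of Wnt ligands, and Wnt signalling is known for roles in progenitor proliferation, hippocampal development and the switch from stem cell to neuron. Wnt7a and Wnt7b are the ligands best known from cortical progenitors and neurons, and both also act on brain blood vessels.

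Values were TPM (transcript abundances scaled to a fixed total per library), which account for transcript length and keep no sequencing depth, so depth is unknown and a level listed at 0 does not show absence. NSC came from one reporter line and BP and NBN from the other, so line and cell type cannot be told apart there, and the sources used here do not say how BP and NBN were separated. The labels do not say whether replicates came from separate animals, so p-values measure only how far these libraries differ, and part of that may be technical. Hes5, the gene of the NSC reporter, averaged 2.29 to 6.04 TPM by stage in NBN, 2.86 to 7.28 in BP and 72.4 to 479 in NSC. Eomes, which encodes Tbr2, averaged 7.15 to 41.9 TPM by stage in NBN and 282 to 578 in BP, but also 35.8 to 607 in NSC, so it did not set NSC apart from BP. All libraries were labelled female, yet 43 of 70 had more than 10 TPM summed over 4 Y-linked genes. One PN library was labelled NSC in its title and basal progenitor in its cell type field; it was kept as NSC, and without it all 40 member values that it enters kept their call. In bulk samples fewer cells that express a gene and less RNA per cell cannot be told apart.

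The promoters of Wnt8b and Lef1 are shown because these genes had the most similar stage course among the members in NSC, and that of Axin2 because it is the textbook feedback target of the pathway. Each is the 250 bases upstream of a transcript start, 5′ to 3′ on the plus strand, from RefSeq on build GRCm38.p6. Capitals mark the core letters of the TCF and LEF motif, searched as CTTTGA or CTTTGT on both strands (TCAAAG or ACAAAG on the other strand). The windows are chr19:44493222-44493471 for Wnt8b, chr3:131156044-131156293 for Lef1 and chr11:108920099-108920348 for Axin2. In the GENCODE annotation of GRCm38 these genes lie on the plus strand, at chr19:44493472-44514273, chr3:131110471-131224356 and chr11:108920349-108950783.
Wnt8b: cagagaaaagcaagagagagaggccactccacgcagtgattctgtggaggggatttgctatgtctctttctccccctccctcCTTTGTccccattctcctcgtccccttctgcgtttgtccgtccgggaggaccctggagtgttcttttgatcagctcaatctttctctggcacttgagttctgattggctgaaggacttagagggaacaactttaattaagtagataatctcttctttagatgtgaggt
Lef1: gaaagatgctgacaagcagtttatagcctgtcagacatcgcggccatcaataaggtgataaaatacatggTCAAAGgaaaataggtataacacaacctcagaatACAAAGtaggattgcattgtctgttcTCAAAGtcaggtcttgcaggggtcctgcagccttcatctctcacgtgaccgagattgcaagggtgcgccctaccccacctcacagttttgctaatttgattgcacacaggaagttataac
Axin2: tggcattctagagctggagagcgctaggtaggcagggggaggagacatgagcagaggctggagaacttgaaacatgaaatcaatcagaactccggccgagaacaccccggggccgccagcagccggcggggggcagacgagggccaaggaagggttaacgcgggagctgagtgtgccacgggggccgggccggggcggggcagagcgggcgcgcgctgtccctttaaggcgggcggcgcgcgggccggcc
The Wnt8b window held 1 match, 168 bases upstream of the start. The Lef1 window shown held 3, at 180, 146 and 120 bases, and was picked for them: it precedes a start inside the gene, and the other 3 Lef1 windows, nearer the 5′ end of the gene, held none. The Axin2 window held none of these letters. Windows of 6 of the 10 members were searched, 9 in all, of which 2 held a match. Windows of the other members were not searched, so nothing is said of them. Of all 32851 windows of this length, members or not, 27.6% held at least 1, so a match is a description and not a site.

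**Figure D1:**
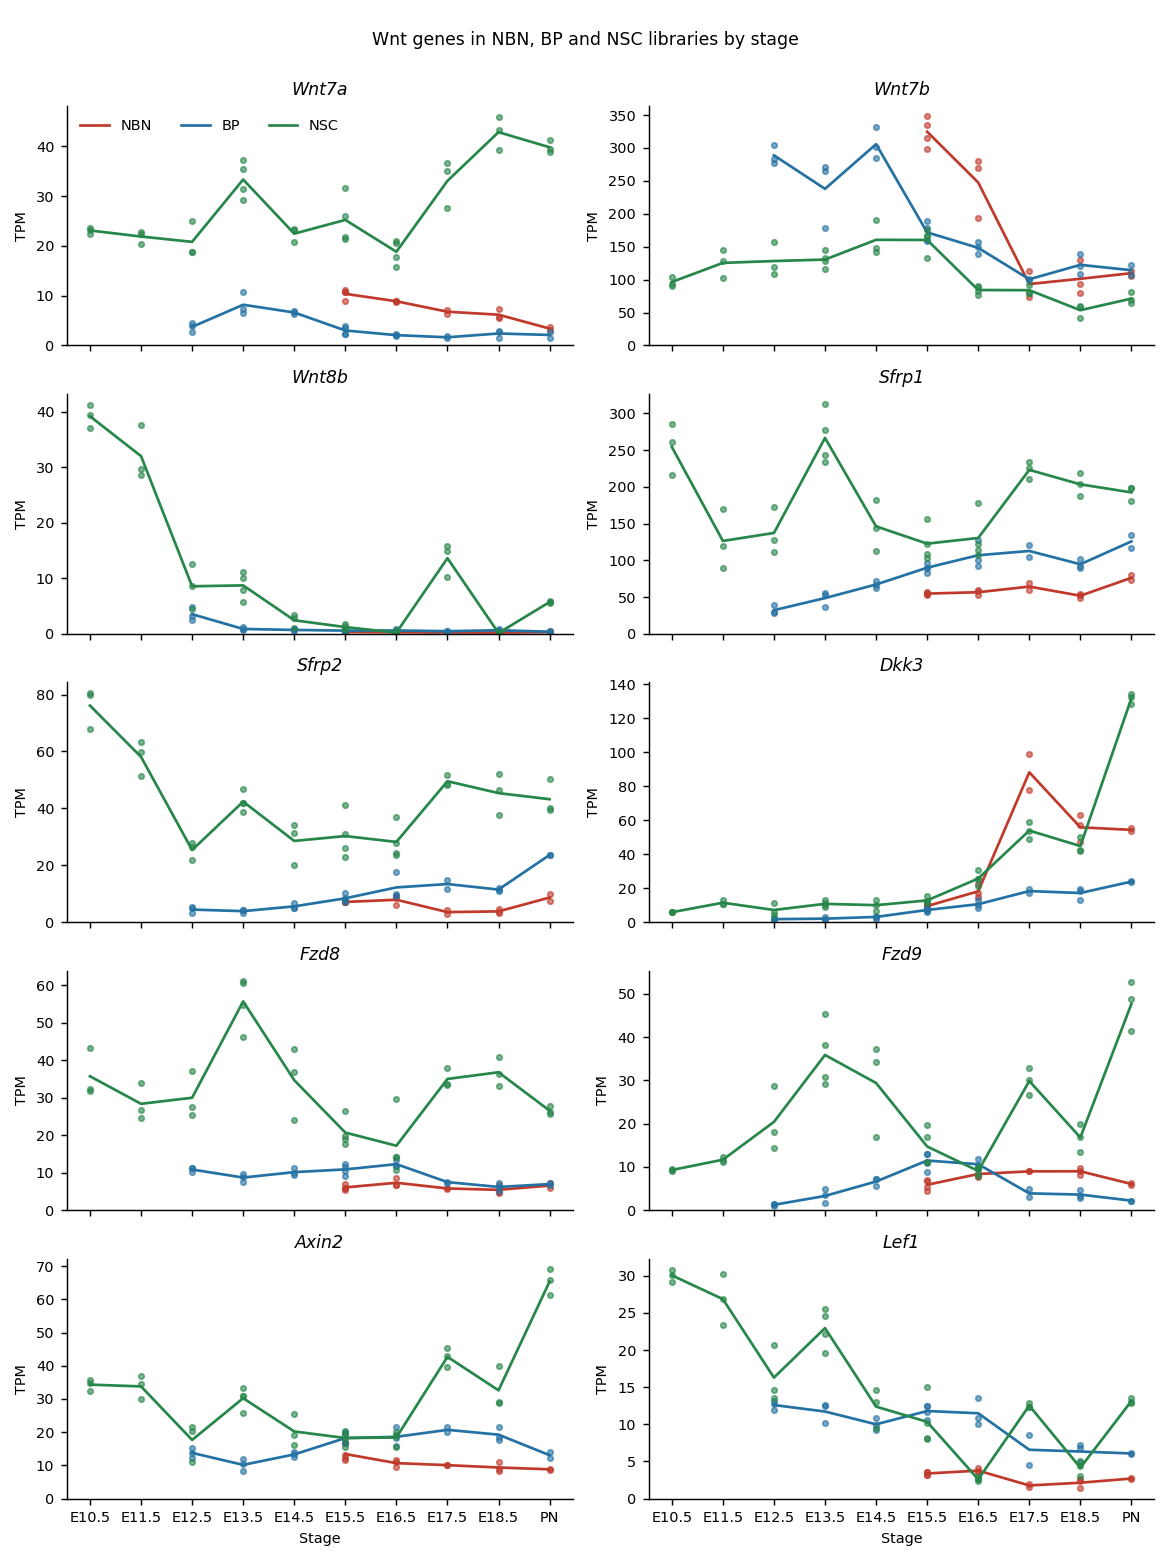
TPM of the 10 members by stage, with 1 point per library and lines through the group means, for NBN (red), BP (blue) and NSC (green). Wnt7b is the ligand with the highest level in every group, while most other members lie highest in NSC.

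Wnt7b was the most abundant ligand in every group and had its highest levels in cells outside the stem cell compartment. NBN libraries had 299, 349, 336 and 316 TPM at E15.5 and 194, 269 and 280.0 at E16.5, but 73.9 and 113 at E17.5. BP libraries had 301, 285 and 332 TPM at E14.5 and 101 and 100.03 at E17.5. NSC libraries had 176, 166, 133 and 166 TPM at E15.5 and 59.0, 59.6 and 42.1 at E18.5, the lowest group of all. In each cell type the libraries of the earlier of these stages lay above all those of the later one. Over the 23 groups ordered by mean, the highest was 6.06 times the lowest, and only 1 of 22 neighbouring pairs had libraries that did not overlap.

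Wnt7a, the paralog of Wnt7b, was highest in NSC and followed another course. It averaged 10.4 ± 0.952 TPM in NBN at E15.5 (SD, n = 4) and 3.39 ± 0.493 at PN (n = 2). BP had 7.29, 10.7 and 6.54 TPM at E13.5 and 1.40 and 1.88 at E17.5, the lowest group. NSC had 20.6, 15.8, 17.9 and 21.0 TPM at E16.5, the lowest NSC stage by mean, and 27.6, 36.6 and 35.0 at E17.5. It had 43.4, 45.9 and 39.2 TPM at E18.5 and 41.2, 38.8 and 39.4 at PN. Every NSC library from E17.5 on lay above every E16.5 library. This was not the only rise in NSC. The mean was 33.3 TPM at E13.5, beside 20.8 at E12.5 and 22.4 at E14.5, without overlap, and 33.1 at E17.5. Wnt7b made up nearly the whole of the Wnt7 transcripts in NBN, at 95.6 ± 1.89% of the summed TPM of both genes (SD over 14 libraries), and in BP, at 98.1 ± 0.776% (n = 23). In NSC that share was 80.6 ± 1.16% at E10.5 (n = 3), 87.6 ± 1.37% at E14.5 (n = 3), 71.7 ± 4.55% at E17.5 (n = 3), 55.3 ± 3.13% at E18.5 (n = 3) and 64.0 ± 2.71% at PN (n = 3). The lowest share was that of E18.5, with libraries from 51.7% to 57.6%.

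Wnt8b, a ligand known from the medial cortex and the cortical hem, was near 0 in NBN and low in BP after E12.5. Its 14 NBN libraries ranged from 0.0427 to 0.555 TPM and its BP libraries had 2.55, 3.12 and 4.90 TPM at E12.5 and at most 1.13 TPM from E13.5 on. NSC had 39.4, 37.0 and 41.2 TPM at E10.5 and 37.7, 29.8 and 28.6 at E11.5, the 2 highest groups, whose libraries overlapped. NSC means then were 8.56, 8.71, 2.43, 1.19 and 0.208 TPM at the 5 stages from E12.5 to E16.5. The later NSC stages alternated, with 10.1, 15.0 and 15.7 TPM at E17.5, 0, 0.276 and 0.112 at E18.5 and 5.49, 5.93 and 5.72 at PN, and no library of one of these stages overlapped the next.

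**Figure D2:**
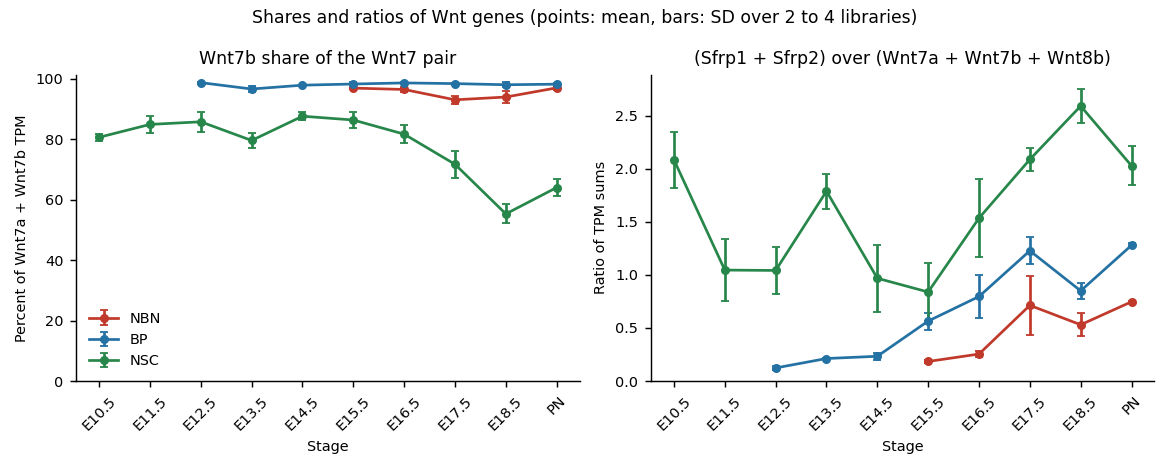
Left, Wnt7b as a percent of the summed TPM of Wnt7a and Wnt7b by stage; right, the summed TPM of Sfrp1 and Sfrp2 over that of the 3 ligands. Points are means and bars the SD over 2 to 4 libraries of NBN, BP and NSC: the share stays above 90% in NBN and BP but reaches 55.3% in NSC at E18.5, and the ratio is highest in NSC at each shared stage.

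Sfrp1 and Sfrp2 encode secreted Frizzled-related proteins, which bind Wnt ligands outside the cell, and both had their highest group mean in NSC. Sfrp1 had 54.8, 56.5, 55.1 and 52.2 TPM in NBN, 96.9, 83.1, 89.8 and 89.7 in BP and 108, 122, 157 and 103 in NSC at E15.5, and the libraries of each cell type lay apart from those of the next at that stage. E15.5 was the lowest NSC stage of Sfrp1, with a mean of 123 TPM. The highest group was NSC at E13.5 (267 TPM), followed by NSC at E10.5 (254 TPM). NSC at E13.5 lay above E12.5 and E14.5 without overlap for Sfrp1, and likewise for Wnt7a, Sfrp2, Fzd8 and Axin2. The share of all genes with that course was not computed. BP means of Sfrp1 were 32.0 ± 5.60 TPM at E12.5 (SD, n = 3), 67.0 ± 4.47 at E14.5 (n = 3), 107 ± 18.1 at E16.5 (n = 3) and 126 ± 12.4 at PN (n = 2), and the PN mean was the highest of the 8 BP stages. Sfrp2 in BP had 4.84, 5.13 and 3.14 TPM at E12.5 and 23.6 and 23.6 at PN. In NSC, Sfrp2 was highest at E10.5, with 68.0, 79.8 and 80.4 TPM, and lowest at E12.5, with 27.8, 26.4 and 21.8 TPM. The ratio of summed Sfrp1 and Sfrp2 to summed ligand TPM was 0.184 ± 0.0107 in NBN at E15.5 and 0.747 ± 0.00302 at PN (SD, n = 4 and 2). It was 0.123 ± 0.0190 in BP at E12.5 and 1.28 ± 0.0179 at PN (n = 3 and 2), and in NSC it lay between 0.838 ± 0.270 at E15.5 (n = 4) and 2.59 ± 0.164 at E18.5 (n = 3). Sfrp2, Wnt7b, Axin2 and Lef1 each overlap an exon of a gene on the other strand, and 13.7%, 4.82%, 2.71% and 14.7% of their 31-base transcript words also occur in other genes. For Sfrp2, Wnt7b and Axin2 the only such gene was the antisense partner, while the words of Lef1 were shared with many genes. Of the antisense partners only that of Sfrp2 was in the file. Whether strand was used in counting was not stated, so reads of such an antisense partner cannot be told apart.

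Dkk3, a divergent member of the Dickkopf family of secreted proteins, was low at early stages and high at late ones in all 3 cell types. NBN had 9.39, 9.80, 9.91 and 8.43 TPM at E15.5 and 98.9 and 77.6 at E17.5. BP had 2.28, 1.61 and 1.18 TPM at E12.5 and 23.7 and 23.9 at PN. NSC had 5.81, 5.74 and 5.74 TPM at E10.5, 21.0, 25.1, 30.8 and 25.5 at E16.5, 49.0, 53.7 and 59.0 at E17.5 and 134.6, 132 and 128 at PN. The NSC libraries of PN lay above those of every other group, and the highest group mean was 78.1 times the lowest, which was BP at E12.5.

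Fzd8 and Fzd9 encode Frizzled receptors, which bind Wnt ligands at the cell surface, and both had their highest group mean in NSC, Fzd8 at E13.5 and Fzd9 at PN. Fzd8 stayed between 4.67 and 8.48 TPM in the 14 NBN libraries and between 5.02 and 13.4 TPM in the 23 BP libraries. In NSC it had 61.0, 46.2, 54.7 and 60.6 TPM at E13.5 and 10.7, 14.2, 14.2 and 29.7 at E16.5, its lowest NSC group, where 1 library lay well above the other 3. Fzd9 in BP had 1.37, 1.49 and 0.914 TPM at E12.5, 10.9, 8.95, 13.0 and 13.1 at E15.5 and 2.21 and 2.24 at PN, so its BP level was highest in the middle of the series. The NSC libraries of E10.5 had 9.58, 9.001 and 9.30 TPM of Fzd9, and those of later stages had 30.8, 29.2, 45.4 and 38.1 at E13.5, 8.55, 7.93, 9.80 and 10.1 at E16.5 and 41.5, 52.8 and 48.7 at PN. At E16.5 the NSC and BP libraries of Fzd9 overlapped, whereas at PN all NSC libraries lay above all BP libraries.

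Axin2 encodes a scaffold of the beta-catenin destruction complex and is itself switched on by the pathway, and Lef1 encodes a transcription factor that pairs with beta-catenin. Axin2 had 9.02 and 8.59 TPM in NBN, 12.1 and 14.0 in BP and 69.2, 61.2 and 65.7 in NSC at PN, the stage at which NSC was highest. In NSC Axin2 was at similar levels at E14.5, E15.5 and E16.5, with group means of 20.2 ± 4.77, 18.2 ± 2.04 and 18.4 ± 1.92 TPM (SD, n = 3, 4 and 4), and at 42.7 ± 2.91 at E17.5 (n = 3). Its earlier NSC means were 34.3, 33.8, 17.7 and 30.2 TPM at E10.5, E11.5, E12.5 and E13.5, and the E18.5 mean was 32.6. The NSC course of Axin2 thus went up and down, and the E13.5 libraries overlapped neither those of E12.5 nor those of E14.5. Lef1 had at most 4.05 TPM in any NBN library, while BP libraries had 9.9999, 10.9 and 13.6 TPM at E16.5 and 6.87, 4.89 and 7.23 at E18.5. In NSC at E16.5 Lef1 had 2.57, 2.59, 2.87 and 2.31 TPM, below every BP library of that stage. The ratio of Axin2 to Lef1 in NSC was 1.14 ± 0.0749 at E10.5 (SD, n = 3), 7.15 ± 1.03 at E16.5 (n = 4), 3.41 ± 0.232 at E17.5 (n = 3) and 8.02 ± 1.40 at E18.5 (n = 3), so the 2 transcripts did not keep a fixed proportion.

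**Figure D3:**
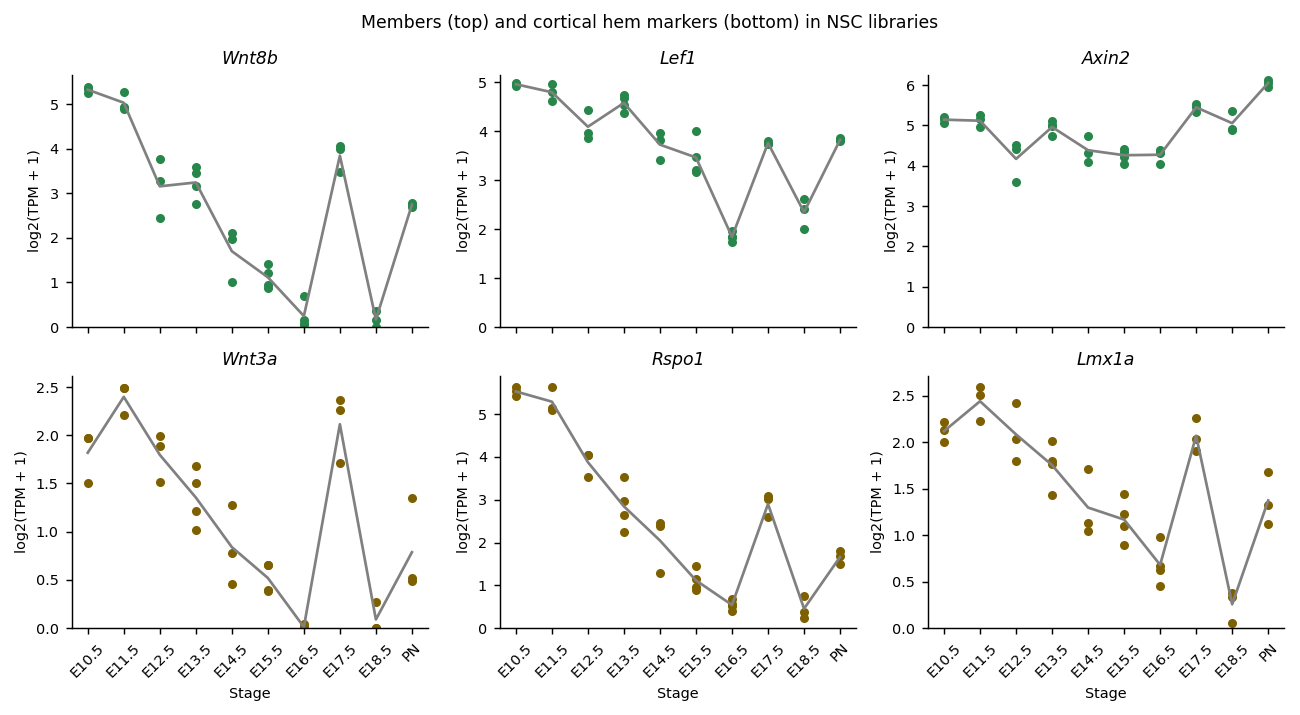
Levels as log2(TPM + 1) in NSC libraries by stage, 1 point per library with a line through the stage means, for Wnt8b, Lef1 and Axin2 (top, green) and the cortical hem markers Wnt3a, Rspo1 and Lmx1a (bottom, brown). All 6 are higher at E17.5 than at E16.5, and Wnt8b, Lef1 and the 3 markers are low again at E18.5.

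Markers of the cortical hem, like Wnt8b and Lef1, had higher NSC means at E17.5 than at E16.5 and E18.5. Lef1 had 12.3, 12.8 and 12.4 TPM at E17.5, 4.34, 5.10 and 3.02 at E18.5 and 13.0, 12.9 and 13.496 at PN. Wnt3a, a hem ligand, had 0, 0.0298, 0 and 0 TPM at E16.5, 2.29, 4.14 and 3.81 at E17.5, 0, 0.202 and 0 at E18.5 and 0.433, 0.403 and 1.55 at PN. Lmx1a, a hem transcription factor, had 0.966, 0.542, 0.590 and 0.367 TPM at E16.5, 2.75, 3.81 and 3.11 at E17.5, 0.0418, 0.294 and 0.263 at E18.5 and 1.498, 1.18 and 2.20 at PN. For both markers, as for Wnt8b and Lef1, no library of E17.5 overlapped one of E16.5 or E18.5. This was not particular to them. Fzd9 averaged 9.09, 29.9 and 16.8 TPM at E16.5, E17.5 and E18.5, and the dentate marker Prox1 19.8, 47.2 and 29.1, also without overlap. Wnt7a, Sfrp1, Sfrp2, Dkk3, Fzd8 and Axin2 rose from E16.5 to E17.5 without overlap too. The share of all genes with such a course was not computed. All 6 listed hem markers (Lmx1a, Wnt3a, Wnt2b, Rspo1, Rspo2 and Rspo3) were in the file, and their summed TPM averaged 82.0 at E10.5, 19.0 at E16.5, 47.3 at E17.5, 2.97 at E18.5 and 14.9 at PN. Of these markers Rspo3 overlapped between E16.5 and E17.5, and Rspo1 is also the gene whose course over the 23 group means was most like that of Wnt8b (Pearson r = 0.958). Across the 10 NSC stage means, Wnt8b and Lef1 had a Pearson r of 0.91 on the log2 scale, a description over groups that share a cell type and line. The part of hem cells in these levels was not tested.

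The cell types were compared over the stages that both had, as the mean difference of log2(TPM + 1), and a gene was called at an adjusted p below 0.05 and a difference of at least 1. All adjusted p-values are from limma with Benjamini-Hochberg adjustment over all tested genes. On this scale the difference of a gene near or under 1 TPM is understated. Comparisons that share libraries are not independent. The share of all tested genes whose libraries did not overlap was not computed. Members named below as without overlap are thus not shown to stand out from other genes. With quantile normalization the share of all called genes that were higher was 33.3% in place of 23.1% in BP against NSC, 49.4% in place of 34.1% in NBN against NSC, and 52.1% in place of 72.3%, 57.8% in place of 79.2% and 49.9% in place of 69.9% in 3 stage comparisons, NSC mid against early, NSC late against mid and BP late against mid. With median ratio scaling that share was 52.7% in NSC mid against early and 56.4% in BP late against mid. Array weights, which weight each library in the fit, ran from 9.2e-22 to 62.3. The library with the lowest weight thus had almost no part in that fit, and its results are no ordinary check.

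In NBN against BP, the ligand Wnt7a and the secreted Dkk3 rose while Sfrp2 and Lef1 fell. These were 2 of 10 members called higher and 2 called lower, where 9.42% of all tested genes were called, 4.36% higher and 5.06% lower. The lowest, median and highest Wnt7a level was 3.04, 8.04 and 11.1 TPM in 14 NBN libraries, against 1.40, 2.28 and 3.86 TPM in 14 BP libraries, a log2 difference of 1.28 ± 0.08 (SE, adjusted p = 2.95e-21). For Lef1 the same 3 values were 1.36, 2.95 and 4.05 TPM in NBN, against 4.58, 9.28 and 13.6 in BP, a difference of -1.30 ± 0.08 (adjusted p = 2.52e-20), and no libraries overlapped. Dkk3 differed by 1.23 ± 0.10 (adjusted p = 3.09e-16) and Sfrp2 by -1.04 ± 0.09 (adjusted p = 9.82e-15). Sfrp1 also had no overlap, with 48.0, 55.8 and 79.7 TPM in NBN, against 83.1, 98.8 and 134 in BP, but its difference of -0.80 ± 0.08 stayed under the minimum. The median difference of the members was -0.34, beside -0.07 over all tested genes. The Sfrp2 and Dkk3 calls rested on late stages: up to E16.5 their differences were -0.37 and 0.55, and without E17.5 they were -0.88 and 0.98, all under the minimum. Sfrp2 was also lost with quantile normalization (-0.89), median ratio scaling (-0.95) and array weights (-0.99), without BP E16.5 replicate 1 (-0.98), and without NBN E17.5 replicate 2 (-0.996), and Fzd9, at 0.43 ± 0.11 over all stages, was -0.59 at stages up to E16.5 but 1.11 at stages from E17.5. With a pseudocount of 5, Wnt7a (0.72), Lef1 (-0.77) and Sfrp2 (-0.73) were under the minimum.

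Of 79 other Wnt pathway genes in the file, 69 were tested, and 2 were called higher and 6 lower in NBN than in BP. Nkd2, a feedback inhibitor, differed by 1.55 ± 0.09 and Rspo2, an R-spondin that enhances Wnt signalling, by 1.38 ± 0.13. Both were under the minimum with a pseudocount of 5, Nkd2 at 0.96 and Rspo2 at 0.77, and Rspo2 was 0.58 up to E16.5. Tcf7l2, a TCF transcription factor, averaged 1.10 ± 0.515 TPM in NBN and 8.27 ± 3.05 in BP (SD, n = 14 each), a difference of -2.18 ± 0.13. The receptor gene Fzd2 and the ligand gene Wnt5a differed by -2.06 ± 0.05 and -2.04 ± 0.08. The summed TPM of the neuronal markers was 6142 to 9763 in NBN libraries, against 4093 to 5984 in BP libraries, with 7 of 9 markers higher in NBN and none at 0. That of the basal progenitor markers was 142 to 316 in NBN, against 1156 to 1988 in BP, with 0 of 6 higher in NBN, and that of the neural stem cell markers 221 to 484 in NBN, against 529 to 721 in BP, with 2 of 9 higher in NBN. None was at 0 throughout, and their part in the member differences was not tested.

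In NBN against NSC, 8 of 10 members fell and none rose, where 19.1% of all tested genes were called, 12.6% lower and 6.51% higher. The receptors Fzd8 and Fzd9, the antagonists Sfrp1 and Sfrp2, the ligands Wnt7a and Wnt8b, and Axin2 and Lef1 were all lower in NBN on average. At E16.5 the group mean of NBN was above that of NSC for Wnt8b (0.258 against 0.208 TPM) and Lef1 (3.76 against 2.59 TPM). At E18.5 it was also above for Wnt8b (0.215 against 0.129 TPM), with both levels near 0. Sfrp2 differed most, with a lowest, median and highest level of 2.84, 6.92 and 9.81 TPM in 14 NBN libraries, against 22.997, 39.3 and 52.0 TPM in 17 NSC libraries, a difference of -2.53 ± 0.09 (SE, adjusted p = 2.08e-32). Wnt7a had 3.04, 8.04 and 11.1 TPM in NBN, against 15.8, 31.6 and 45.9 in NSC, and differed by -2.03 ± 0.07 (adjusted p = 8.95e-32). The libraries of Sfrp1, Sfrp2, Fzd8 and Wnt7a did not overlap between the cell types. Fzd8 differed by -1.89 ± 0.09, Axin2 by -1.52 ± 0.07, Sfrp1 by -1.47 ± 0.08, Wnt8b by -1.31 ± 0.11, Fzd9 by -1.30 ± 0.10 and Lef1 by -1.18 ± 0.08. Wnt7b had a higher level in NBN by 0.84 ± 0.07, under the minimum, and Dkk3 differed by -0.23 ± 0.09 (adjusted p = 0.0218). That Dkk3 value averaged both directions. Its group mean was higher in NBN at E17.5 (88.2 against 53.9 TPM) and E18.5 (55.8 against 44.8 TPM). At the other shared stages it was lower in NBN, with 54.3 against 132 TPM at PN. The median over the members was -1.39, beside -0.12 over all tested genes. Up to E16.5 the calls of Wnt8b (-0.33), Lef1 (-0.46), Axin2 (-0.58) and Fzd9 (-0.64) were lost and Wnt7b passed at 1.27, and without E17.5 Wnt8b (-0.74) and Lef1 (-0.90) were lost and Wnt7b passed at 1.02. With quantile normalization the Lef1 call was lost at -0.81, and with a pseudocount of 5 those of Wnt8b (-0.60) and Lef1 (-0.72) were.

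Among the 69 other pathway genes tested, 3 were higher and 17 lower in NBN than in NSC. Of the 7 feedback and other target genes 6 fell and 1 rose, with a median difference of -1.11 over the 7. Ccnd1, which encodes cyclin D1, averaged 7.86 ± 1.19 TPM in NBN (SD, n = 14) and 56.6 ± 33.1 in NSC (n = 17), a difference of -2.59 ± 0.09. The TCF factors Tcf7l1 and Tcf7l2 differed by -2.67 ± 0.10 and -2.48 ± 0.12, while the R-spondin Rspo3, the destruction complex gene Apc2 and Nkd2 were higher by 1.60 ± 0.12, 1.29 ± 0.12 and 1.22 ± 0.08. Apc2 was 0.48 up to E16.5 and Nkd2 0.77 with a pseudocount of 5, both under the minimum. Neural stem cell markers summed to 221 to 484 TPM in NBN, against 1597 to 12029.8 in NSC, with 0 of 9 higher in NBN. Basal progenitor markers summed to 142 to 316 TPM in NBN, against 512 to 1859.9 in NSC, with 0 of 6 higher in NBN, and interneuron markers to 6.92 to 65.4 TPM in NBN, against 126 to 1030.1 in NSC, with 0 of 6 higher in NBN. Neuronal markers, which overlapped between the cell types, summed to 6142 to 9763 TPM in NBN, against 1155 to 6443 in NSC, with 9 of 9 higher in NBN. Oligodendrocyte precursor markers summed to 1.28 to 38.9 TPM in NBN, against 9.77 to 1633 in NSC, with 0 of 5 higher in NBN. Astroglial markers summed to 31.7 to 196 TPM, against 46.1 to 3061, with 0 of 5 higher, and libraries overlapped in both lists. None was at 0 throughout, and their part in the member differences was not tested.

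**Figure D4:**
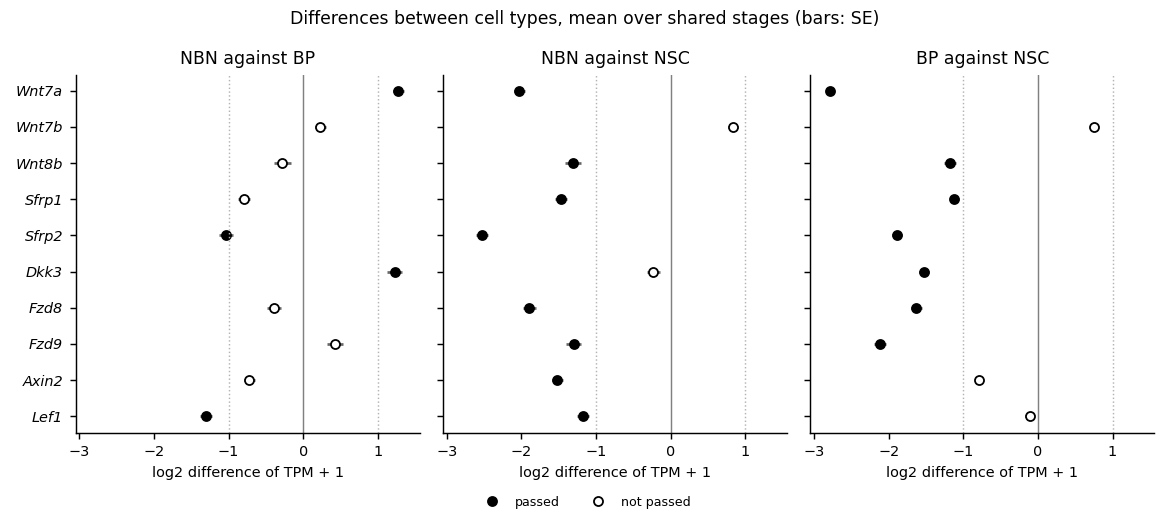
Mean difference of log2(TPM + 1) over shared stages for the 10 members in NBN against BP, NBN against NSC and BP against NSC, with SE bars. Filled points passed the adjusted p and the minimum difference of 1 (dotted lines); in the 2 comparisons with NSC all filled points lie left of 0.

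In BP against NSC, 7 of 10 members fell and none rose, where 8.09% of all tested genes were called, 6.22% lower and 1.87% higher. Wnt7a differed most, with a lowest, median and highest level of 1.40, 2.78 and 10.7 TPM in 23 BP libraries, against 15.8, 27.6 and 45.9 TPM in 27 NSC libraries, without overlap, a difference of -2.78 ± 0.06 (SE, adjusted p = 4.51e-42). Fzd9 had 0.914, 4.81 and 13.1 TPM in BP, against 7.93, 20.02 and 52.8 in NSC, and differed by -2.11 ± 0.08 (adjusted p = 7.79e-30). Sfrp2 differed by -1.89 ± 0.07, Fzd8 by -1.63 ± 0.07, Dkk3 by -1.53 ± 0.07, Wnt8b by -1.18 ± 0.08 and Sfrp1 by -1.12 ± 0.06. Among these called members, the E16.5 group mean of BP was above that of NSC for Wnt8b (0.588 against 0.208 TPM) and Fzd9 (10.6 against 9.09 TPM). At E18.5 it was also above for Wnt8b (0.629 against 0.129 TPM). Lef1 had 4.58, 10.5 and 13.6 TPM in BP, against 2.31, 12.8 and 25.5 in NSC, and its difference of -0.11 ± 0.06 did not pass (adjusted p = 0.0972). That Lef1 value averaged both directions. Its group mean was higher in BP at E15.5 (11.79 against 10.33 TPM), E16.5 (11.49 against 2.59 TPM) and E18.5 (6.33 against 4.15 TPM). At the other shared stages it was lower in BP, with 6.07 against 13.13 TPM at PN. Wnt7b differed by 0.75 ± 0.06 and Axin2 by -0.79 ± 0.06, both under the minimum. The Axin2 group means of BP and NSC were close at E15.5 (18.21 and 18.23 TPM) and E16.5 (18.60 and 18.39 TPM). The median over the members was -1.36, beside -0.02 over all tested genes. The Wnt8b call was lost without E17.5 and up to E16.5, at -0.88 in both, Sfrp1 was lost from E17.5 at -0.90, and Axin2 passed from E17.5 at -1.32. With a pseudocount of 5 Wnt8b was also under the minimum at -0.61.

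Among the other pathway genes tested, 1 was higher and 11 were lower in BP than in NSC. Apc2 differed by 1.05 ± 0.09, and Tcf7l1, Ccnd1 and the receptor gene Tnfrsf19 by -2.45 ± 0.07, -1.70 ± 0.07 and -1.63 ± 0.07. Up to E16.5 Apc2 (0.66) and Ccnd1 (-0.83) were under the minimum. Neural stem cell markers summed to 529 to 969 TPM in BP libraries, against 1597 to 12029.8 in NSC libraries, with 0 of 9 higher in BP. Neuronal markers summed to 4093 to 7979.8 TPM in BP, against 1155 to 6443 in NSC, with 9 of 9 higher in BP. Basal progenitor markers summed to 901 to 1988 TPM in BP, against 512 to 1859.9 in NSC, with 4 of 6 higher in BP. The libraries overlapped in the neuronal and basal progenitor lists, so basal progenitor markers did not set BP apart from NSC. Oligodendrocyte precursor markers summed to 0.980 to 19.2 TPM in BP, against 3.15 to 1633 in NSC, with 0 of 5 higher in BP. Astroglial markers summed to 34.7 to 221 TPM, against 30.9 to 3061, with 0 of 5 higher. Interneuron markers summed to 3.97 to 50.3 TPM, against 42.5 to 1030.1, with 0 of 6 higher, and libraries overlapped in these lists as well. None of the markers was at 0 throughout, and their part in the member differences was not tested.

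**Figure D5:**
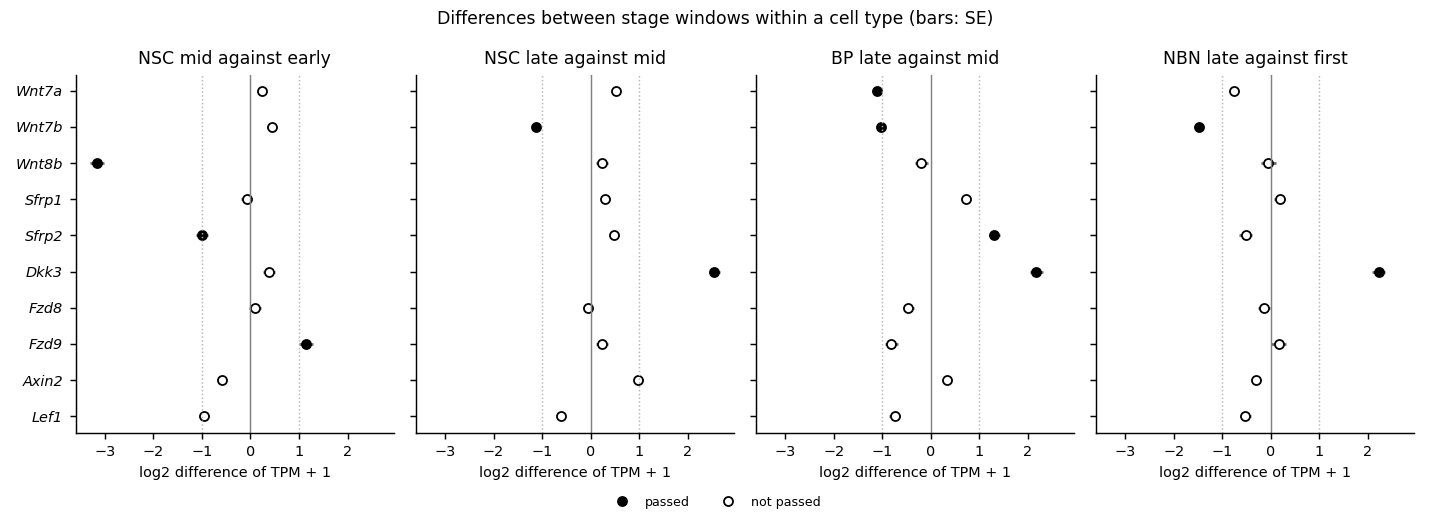
Mean difference of log2(TPM + 1) between stage windows for the 10 members, with SE bars, in NSC (mid against early, late against mid), BP (late against mid) and NBN (late against first). Filled points passed; Dkk3 lies right of 2 in each late comparison and Wnt7b left of -1.

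Within NSC, mid stages (E13.5 to E15.5, 11 libraries) were compared with early stages (E10.5 and E11.5, 6 libraries). Wnt8b and Sfrp2 fell and the receptor Fzd9 rose, so 1 member of 10 was called higher and 2 lower, where 19% of all tested genes were called, 13.7% higher and 5.26% lower. Wnt8b had a lowest, median and highest level of 0.843, 2.92 and 11.1 TPM at mid stages, against 28.6, 37.4 and 41.2 at early stages, without overlap, a difference of -3.16 ± 0.14 (SE, adjusted p = 2.72e-26). Sfrp2 had 19.95, 34.1 and 46.9 TPM at mid stages, against 51.2, 65.7 and 80.4 at early stages, also without overlap, and differed by -1.0008 ± 0.12 (adjusted p = 1.03e-10). Fzd9 had 11.1, 29.2 and 45.4 TPM at mid stages, against 9.001, 10.3 and 12.2 at early stages, and differed by 1.14 ± 0.14 (adjusted p = 3.91e-10). Lef1 differed by -0.95 ± 0.11, just under the minimum, and the member median was 0.01, beside 0.14 over all tested genes. The Sfrp2 value lay at the minimum, and 10 of 17 fits that each left out 1 library put it under 1 in size, between -1.05 and -0.92 in all; these left out NSC E10.5 replicate 2 or 3, E11.5 replicate 2 or 3, E13.5 replicate 1, 2 or 3, E14.5 replicate 3, or E15.5 replicate 1 or 4. It was also under the minimum with array weights (-0.92), with a pseudocount of 5 (-0.92) and with a term for Y-linked transcripts (-0.998). Fzd9 was under the minimum at 0.94 with a pseudocount of 5 and 0.79 with quantile normalization. It was also under it at 0.90 with median ratio scaling and 0.82 with the mid stages widened to E12.5 through E16.5. Lef1 passed at -1.25 with quantile normalization, -1.21 with median ratio scaling and -1.34 with the wider mid window. With a pseudocount of 0.1 Lef1 passed at -1.005, and it passed without E11.5 replicate 3 or E15.5 replicate 2 (-1.01 at the largest).

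Among the other pathway genes 8 rose and 17 fell at mid NSC stages. Draxin, a secreted inhibitor of Wnt signalling and axon guidance cue, averaged 113 ± 38.2 TPM at mid stages (SD, n = 11) and 13.4 ± 7.11 at early stages (n = 6), a difference of 3.05 ± 0.12. Tle2, a corepressor, and Apc2 differed by 2.11 ± 0.15 and 2.09 ± 0.16. Ccnd1 averaged 49.9 ± 32.1 TPM at mid and 322 ± 34.6 at early stages, a difference of -2.96 ± 0.12, and Rspo1 and Rspo2 differed by -3.41 ± 0.16 and -2.01 ± 0.17. Cortical hem markers, which include Rspo1 and Rspo2, summed to 24.0 to 52.2 TPM at mid stages, against 76.9 to 117 at early stages, with 1 of 6 higher at mid stages. Erythroid markers summed to 26.5 to 420.2 TPM at mid stages, against 1489 to 7826 at early stages, with 0 of 7 higher at mid stages, and neuronal markers to 2879 to 6443 TPM, against 416 to 3043, with 9 of 9 higher at mid stages. Basal progenitor markers summed to 627 to 1659.5 TPM at mid stages, against 120.0 to 477 at early stages, with 6 of 6 higher at mid stages, and hippocampus and dentate markers to 218 to 768 TPM, against 3.78 to 54.4, with 3 of 3 higher at mid stages. None of these markers was at 0 throughout, and their part in the member differences was not tested.

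Late NSC stages (E17.5, E18.5 and PN, 9 libraries) had more Dkk3 and less Wnt7b than mid stages; the other 4 secreted members were not called. This was 1 of 10 members called higher and 1 called lower, where 11.8% of all tested genes were called, 9.31% higher and 2.45% lower. Dkk3 had a lowest, median and highest level of 41.8, 53.7 and 134.6 TPM at late stages, against 6.47, 11.52 and 15.3 at mid stages, without overlap, a difference of 2.54 ± 0.11 (SE, adjusted p = 1.08e-26). Wnt7b had 42.1, 69.2 and 92.0 TPM at late stages, against 116, 145.2 and 189.9 at mid stages, also without overlap, and differed by -1.12 ± 0.09 (adjusted p = 6.58e-17). Axin2 had 28.6, 43.1 and 69.2 TPM at late stages, against 15.6, 20.3 and 33.4 at mid stages, and its difference of 0.98 ± 0.09 was just under the minimum. The member median was 0.27, beside 0.12 over all tested genes. With the mid stages widened to E12.5 through E16.5 Wnt7b was under the minimum at -0.91 and Axin2 passed at 1.11, and without E17.5 Axin2 passed at 1.02. Axin2 also passed, at up to 1.04, without NSC E14.5 replicate 2, E15.5 replicate 1, E17.5 replicate 1, E18.5 replicate 1 or E18.5 replicate 3. With a pseudocount of 0.1 Axin2 passed at 1.01. The Wnt8b difference of 0.23 ± 0.13 (adjusted p = 0.102) averaged stages that alternated, and without E17.5 it was -0.56 (adjusted p = 0.000537).

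Of the other pathway genes 14 rose and 2 fell in late NSC, and of the 7 feedback and other target genes 5 rose, with a median of 1.07 over the 7. Sfrp5, a secreted Frizzled-related protein, averaged 7.23 ± 2.76 TPM at late stages (SD, n = 9) and 0.135 ± 0.143 at mid stages (n = 11), and differed by 2.78 ± 0.08. The receptor gene Fzd5 and the target gene Sp5 differed by 2.45 ± 0.08 and 1.35 ± 0.12, and Rspo3 and Apc2 by -2.06 ± 0.14 and -1.25 ± 0.14. Sp5 was under the minimum without PN (0.81), with quantile normalization (0.99) and with a pseudocount of 5 (0.83). Markers of oligodendrocyte precursors summed to 373 to 1633 TPM at late stages, against 5.05 to 45.6 at mid stages, with 5 of 5 higher at late stages. Astroglial markers summed to 564 to 3061 TPM at late stages, against 30.9 to 95.5 at mid stages, with 5 of 5 higher, and neuronal markers to 1155 to 2759 TPM, against 2879 to 6443, with 0 of 9 higher. Neural stem cell markers summed to 6044 to 12029.8 TPM at late stages, against 1819.7 to 4123 at mid stages, with 9 of 9 higher, and Cajal-Retzius markers to 6.98 to 40.8 TPM, against 64.7 to 144, with 0 of 4 higher. None was at 0 throughout, and their part in the member differences was not tested.

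Late BP (7 libraries, the same 3 stages) had higher Dkk3 and Sfrp2 and lower Wnt7a and Wnt7b than mid BP (10 libraries). These were 2 of 10 members called higher and 2 called lower, where 4.71% of all tested genes were called, 3.29% higher and 1.42% lower. Dkk3 had a lowest, median and highest level of 13.1, 19.2 and 23.9 TPM in late BP, against 1.26, 3.46 and 8.31 in mid BP, a difference of 2.18 ± 0.13 (SE, adjusted p = 5.98e-21). Sfrp2 had 11.1, 11.9 and 23.6 TPM in late BP, against 2.99, 5.88 and 10.1 in mid BP, a difference of 1.31 ± 0.12 (adjusted p = 6.41e-14). Wnt7b had 100.03, 108 and 139 TPM in late BP, against 159, 227 and 332 in mid BP, a difference of -1.04 ± 0.10 (adjusted p = 1.68e-13). The libraries of these 3 genes did not overlap between the windows, and neither did those of Lef1, at -0.75 ± 0.10. Wnt7a differed by -1.11 ± 0.10 (adjusted p = 3.19e-14) with overlap, and the member median was -0.33, beside 0.12 over all tested genes. With the mid stages widened to E12.5 through E16.5 Wnt7a (-0.80) and Wnt7b (-0.97) were under the minimum, as was Wnt7b without E17.5 (-0.96); with quantile normalization Fzd9, at -0.81 ± 0.14 here, passed at -1.03. With a pseudocount of 5 Wnt7a (-0.60) and Sfrp2 (0.94) were under the minimum.

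Of the other pathway genes 3 rose and 6 fell in late BP. Tcf7l2 averaged 9.88 ± 1.99 TPM in late BP (SD, n = 7) and 2.65 ± 1.96 in mid BP (n = 10), a difference of 1.91 ± 0.17, and the ligand Wnt5a differed by 1.26 ± 0.10. Rspo3, the feedback inhibitor Nkd1 and the receptor Fzd1 differed by -1.72 ± 0.16, -1.57 ± 0.11 and -1.14 ± 0.11. Fzd1 was under the minimum without PN (-0.77) and Wnt5a with a pseudocount of 5 (0.98). Markers of the hippocampus and dentate gyrus summed to 1084 to 1959.9 TPM in late BP, against 106 to 1032 in mid BP, with 3 of 3 higher in late BP. Cortical hem markers, of which Rspo3 is one, summed to 9.37 to 22.7 TPM in late BP, against 30.6 to 54.5 in mid BP, with 1 of 6 higher in late BP. Astroglial markers summed to 97.3 to 221 TPM in late BP, against 34.7 to 62.6 in mid BP, oligodendrocyte precursor markers to 3.91 to 19.2, against 0.980 to 1.80, and interneuron markers to 10.7 to 50.3, against 3.97 to 10.4, with 5 of 5, 5 of 5 and 6 of 6 higher in late BP. Neuronal markers summed to 4093 to 5546 TPM in late BP, against 5574 to 7344 in mid BP, with 2 of 9 higher in late BP. None was at 0 throughout, and their part in the member differences was not tested.

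In NBN, late stages (E17.5 to PN, 7 libraries) had higher Dkk3 and lower Wnt7b than the first stages (E15.5 and E16.5, 7 libraries). One member of 10 was called in each direction, where 2.33% of all tested genes were called, 1.27% higher and 1.06% lower. Dkk3 had a lowest, median and highest level of 47.1, 57.2 and 98.9 TPM in late NBN, against 8.43, 9.91 and 22.6 in first-stage NBN, a difference of 2.22 ± 0.14 (SE, adjusted p = 3.37e-19). Wnt7b had 73.9, 106 and 129.7 TPM in late NBN, against 194, 299 and 349 in first-stage NBN, a difference of -1.49 ± 0.10 (adjusted p = 4.44e-17). Both genes separated the windows without overlap, as did Wnt7a, at -0.76 ± 0.11, and Lef1, at -0.53 ± 0.11, which stayed under the minimum. The member median was -0.23, beside 0.03 over all tested genes. Of the other pathway genes 1 rose and 4 fell: Wnt5b differed by 1.24 ± 0.12, and the corepressor Tle4, Rspo3 and the secreted inhibitor Apcdd1 by -1.96 ± 0.10, -1.53 ± 0.17 and -1.12 ± 0.18. Wnt5b was under the minimum without PN (0.94) and with a pseudocount of 5 (0.76), and Apcdd1 without E17.5 (-0.85) and with a pseudocount of 5 (-0.997). Oligodendrocyte precursor markers summed to 20.1 to 38.9 TPM in late NBN, against 1.28 to 5.61 in first-stage NBN, with 5 of 5 higher and none at 0 throughout, and astroglial markers to 60.8 to 196 TPM, against 31.7 to 57.1, with 4 of 5 higher and none at 0 throughout. Cortical hem markers, Rspo3 among them, summed to 22.8 to 44.9 TPM in late NBN, against 45.7 to 83.2 in first-stage NBN, with 2 of 6 higher in late NBN and none at 0 throughout; the markers' part in the member differences was not tested.

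The change from mid to late stages was then compared between BP and NSC as an interaction. Wnt7a and Fzd9 differed in it, both being lower in late BP relative to NSC, so 2 of 10 members were called lower and none higher, where 9.7% of all tested genes were called, 6.85% lower and 2.86% higher. Wnt7a differed by -1.11 in BP and by 0.51 in NSC, an interaction of -1.62 ± 0.13 (SE, adjusted p = 1.83e-15). Fzd9 differed by -0.81 in BP and by 0.24 in NSC, an interaction of -1.05 ± 0.19 (adjusted p = 5.24e-06), which lay under the minimum at -0.52 without PN, at -0.71 with a pseudocount of 5 and in 3 of 37 fits that left out 1 library, without NSC E14.5 replicate 3, BP E13.5 replicate 2 or BP E17.5 replicate 1 (-0.93 at the smallest). Sfrp2 had an interaction of 0.83 ± 0.16 and Axin2 one of -0.64 ± 0.13, under the minimum. For Dkk3 it was -0.37 ± 0.17 (adjusted p = 0.0642) and for Wnt7b 0.08 ± 0.13 (adjusted p = 0.617), which does not show that BP and NSC changed alike. Of the other pathway genes 3 were called higher and 9 lower, among them Apc2, Wnt5b and Tle2 at 1.22 ± 0.21, 1.14 ± 0.14 and 1.13 ± 0.19, and Sfrp5, Ccnd1 and Fzd5 at -2.63 ± 0.11, -2.18 ± 0.16 and -2.14 ± 0.11. Tle2 was under the minimum without E17.5 (0.86) and with a pseudocount of 5 (0.91), as was Wnt5b with a pseudocount of 5 (0.68).

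Over the 23 group means of log2(TPM + 1), the members also differed in how they ran together. Sfrp1 and Sfrp2 had a Pearson r of 0.92 and Wnt7a and Fzd8 one of 0.82, while Wnt7b and Dkk3 had one of -0.75 and Wnt7a and Wnt7b one of -0.34. Among genes with a group mean of at least 20 TPM, the course most like that of Fzd8 was that of Nr2e1, a nuclear receptor of neural stem cells (r = 0.969), followed by Sox3 (0.952) and Yap1 (0.950). The genes most like Lef1 were Dmrt3 (0.936), Nt5dc2 (0.902) and Tgif1 (0.899), and Otx2 was among the 3 genes most like Wnt8b (0.898). Sfrp1 and Sfrp2 shared Dusp16 among their 3 nearest genes (0.941 and 0.937), and Wnt7a and Fzd9 shared Nog, which encodes the BMP antagonist Noggin (0.917 and 0.843). The nearest gene was Agpat6 for Wnt7b (0.914), Chmp2b for Dkk3 (0.935), Erf for Wnt7a (0.918), Gypc for Sfrp2 (0.952), Ptgfrn for Fzd9 (0.890) and Hadhb for Axin2 (0.948). These values describe 23 groups that share cell type and stage, and carry no test.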

How the data were processed

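RNA from sorted NBN, BP and NSC of mouse dorsal cortex was sequenced as single-end reads in 70 libraries. The authors deposited TPM values per gene, made with kallisto 0.43.0, and the submitters' processing notes name the builds GRCm38.p2 and mm10. The sources used here do not say how transcripts were summed to genes or whether strand was used. TPM keeps no depth, so no counting error could be given. Libraries were grouped by cell type and stage from the labels.

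From the deposited TPM, log2(TPM + 1) was computed here and genes were kept whose mean reached 1 TPM in any of the 23 groups (15508 of 23078). limma 3.58.1, under R 4.3.3, estimated one mean per group (moderated variances with a trend, 47 residual degrees of freedom), and comparisons averaged the stages named with equal weight. Calls needed a Benjamini-Hochberg adjusted p below 0.05 over all tested genes and a log2 difference of at least 1. The fit was tested on simulated data. The members and gene lists were chosen with earlier results of these data known. The text names all 10 members, in each comparison up to 3 other pathway genes called with the largest differences in each direction (where the higher side averaged 5 TPM or more), and the 3 genes most like each member, of which some are given. Fits with a term for Y-linked transcripts and without E17.5 were added after seeing the data; the other alternatives were another pseudocount, filter, scaling, weighting, window, stage range, minimum difference and replicate block, and leaving out each library.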

Additional observations from a re-analysis of the deposited data

Results flagged for a closer look

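Wnt8b in NSC at E16.5 had 0.623 TPM in replicate 1, while the other 3 libraries of the group lay between 0.0425 and 0.117 TPM. This was the single library that stood apart by Dixon's criterion among the 50 combinations of member and group with 4 to 10 libraries that were tested, and chance flags about 1 in 20 such groups.

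The change from mid to late stages differed between BP and NSC for Wnt7a, with an interaction of -1.62 on the log2 scale, and for Fzd9, with one of -1.05, by the limma test of the difference itself.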

How the results depend on the processing

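Of 32 called member values, recomputed under other settings 476 times, 438 kept their call and direction, 38 fell under a threshold and 0 reversed. A pseudocount of 5 accounted for 11 of these 38 and stages up to E16.5 for 7. The 438 include settings that could hardly lose a call, each with all 32 kept. A minimum difference of 0.58 only loosens the rule. The other filters, the fit without a variance trend and the fit to only the libraries compared left the log2 differences as they were. Quantile normalization moved the median difference of all tested genes by over 0.1, to 0.04 in NBN against NSC (-0.12 as deposited), to -0.04 in NSC mid against early (0.14), to -0.07 in NSC late against mid (0.12) and to -0.01 in BP late against mid (0.12). With a pseudocount of 0.1 the number of all genes called was 2031 for BP against NSC, 2256 for NBN against BP, 2788 for NSC late against mid, 1534 for BP late against mid and 893 for NBN late against first. With a pseudocount of 5 it was 634 for BP against NSC, 729 for NBN against BP, 1791 for NBN against NSC, 1625 for NSC mid against early, 918 for NSC late against mid, 285 for BP late against mid, 132 for NBN late against first and 780 for the interaction, and members called were 1 in NBN against BP, 1 in NSC mid against early, 2 in BP late against mid and 1 in the interaction. With a minimum difference of 0.58 the 8 counts, in the same order, were 3110, 3434, 5576, 6162, 4195, 2378, 1242 and 3530, and members called were 5 in NSC mid against early, 4 in NSC late against mid, 7 in BP late against mid and 4 in the interaction. Up to E16.5, 592 genes were called in BP against NSC and 1567 in NBN against NSC, with 2 members in NBN against BP and 5 in NBN against NSC, and from E17.5, 2865 genes were called in BP against NSC. Members called were 2 in BP late against mid with the mid stages widened to E12.5 through E16.5, 1 in the interaction without PN, and 2 in NBN against BP without E17.5. Leaving out 1 library gave 1 to 2 members in the interaction.

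Member values that turned direction were all uncalled ones. With quantile normalization these were Lef1 in BP against NSC (0.049) and in the interaction (0.017), Wnt7a (-0.077), Dkk3 (-0.0034) and Fzd8 (-0.16) in NSC mid against early, and Wnt8b in NSC late against mid (-0.11). Median ratio scaling turned Wnt7a (-0.027) and Fzd8 (-0.16) in NSC mid against early. Wnt8b in NSC late against mid was -0.21 with a pseudocount of 0.1, -0.014 without PN and -0.56 without E17.5. Stages up to E16.5 gave 0.10 for Lef1 in BP against NSC and -0.59 for Fzd9 in NBN against BP, and stages from E17.5 gave -0.16 for Wnt7b in NBN against BP. The wider mid window gave -0.15 for Fzd8 in NSC mid against early, 0.19 for Fzd8 in NSC late against mid and -0.065 for Wnt7b in the interaction. Without PN, Fzd8 was 0.082 and Fzd9 -0.12 in NSC late against mid and Lef1 0.14 in the interaction. Without E17.5, Lef1 was 0.0023 in BP against NSC and 0.081 in the interaction, and Wnt8b 0.38 in the interaction. Leaving out 1 library gave -0.19 to 0.038 for Sfrp1 in NSC mid against early and -0.12 to 0.014 for Wnt8b in NBN late against first. The cause was not tested.

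The deviations of same-numbered libraries correlated above 0.1 in 8 of 14 pairs of NBN and BP (-0.23 to 0.46, median 0.12), in 1 of 14 pairs of NBN and NSC (-0.23 to 0.25) and in 9 of 23 pairs of BP and NSC (-0.23 to 0.45). Since not every pair was above 0.1 and the labels give no shared source, the numbers were not taken to pair the libraries. With a replicate block all 32 called member values kept their call, with 7 members called in BP against NSC, and with a replicate block by stage over NBN and BP alone the 4 members called in NBN against BP kept theirs. Across stages of a cell type, the median correlation of same-numbered libraries was -0.00036 in NBN, -0.0052 in BP and -0.019 in NSC. The first block used the number alone, so calls kept under it do not show that a shared source was accounted for. Depth is unknown, so low levels such as those of Wnt8b carry an error that cannot be given.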
